A study of Mus musculus with 4 samples.

Results

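MDSCs cultured from Oct4 transgenic mice were compared with MDSCs from WT mice over all genes of a stem cell array, which took 2 of the 4 arrays of the series. MDSCs are muscle-derived stem cells, a slowly adhering population that is left after repeated replating of dissociated muscle (preplating) and that can give rise to muscle and to other mesenchymal lineages. Both cell types came from hind limb muscle of male mice on the C57BL/6J background. The mice differed in genotype, Oct4 transgenic on one side and wild type on the other. According to the series description, the transgenic mice carried the promoter of OCT4 with a reporter. Neither the reporter, the length of the promoter nor the number of lines was given in the sources used here. Age was given only for the WT mice, as 12 to 16 weeks. Both cultures were grown without any differentiating agent in DMEM with 20% fetal bovine serum until nearly confluent. RNA pooled from 3 flasks was hybridised to 1 membrane for each cell type, so that no difference between the genotypes could be set against a spread between cultures or mice, and no test was made. The other 2 arrays of the series held MDSCs of Mst KO mice, which lack myostatin, and of mdx mice, which lack dystrophin, and their values are given for orientation.

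Oct4 is the protein of Pou5f1, a POU-domain transcription factor that keeps the cells of the early embryo and embryonic stem cells pluripotent together with Sox2 and Nanog, and its promoter in front of a reporter is a common way to mark such cells. Skeletal muscle precursors are instead committed by Myod1 and Myf5, the basic helix-loop-helix factors that bind E-boxes in muscle genes. MDSCs are regarded as lying upstream of that commitment, and stem cell cultures from muscle can also hold fibroblast-like cells of the interstitium that carry Pdgfra.

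The array was a nylon membrane with 288 spots of gene-specific oligonucleotides read by chemiluminescence, of which 274 stood for 268 genes and 14 were controls. The unit is a normalized intensity, the spot's raw signal above the dimmest spot of its array, divided by a common factor for that array. The software of the array's maker called each gene present or absent. Of the 268 genes, 130 (48.5%) were called present on the Oct4 transgenic array and 136 (50.7%) on the WT array. Both arrays called 122 genes present, 8 were present on the Oct4 transgenic array alone and 14 on the WT array alone, and 124 genes were absent on both. The comparison covered the 144 genes that either array called present. Raw signals covered 209 to 58764 on the Oct4 transgenic array and 192 to 59363 on the WT array. The 12S rRNA control had an intensity of 34.1 on the Oct4 transgenic array and 30.0 on the WT array, and the 2 blank positions had 0.841 and 0.702 on the Oct4 transgenic array, against 0.533 and 0.532 on the WT array. Values near 1 thus lay close to those of empty membrane on both arrays. The lowest gene called present was Hdac1 at 0.828 on the Oct4 transgenic array and Aldh2 at 0.697 on the WT array. Acan was nevertheless called absent at 1.82 on the Oct4 transgenic array and at 1.14 on the WT array.

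Only genes spotted 3 times gave a measure of error, and it covers the membrane alone. Gapdh, a glycolytic enzyme, averaged 139 ± 3.87 on the Oct4 transgenic array and 113 ± 3.71 on the WT array (SD, n = 3 spots each). Ppia, the prolyl isomerase cyclophilin A, averaged 96.5 ± 2.36 on the Oct4 transgenic array and 89.5 ± 2.96 on the WT array (SD, n = 3 spots each). B2m, the light chain of MHC class I, averaged 72.2 ± 4.10 on the Oct4 transgenic array and 33.0 ± 1.27 on the WT array (SD, n = 3 spots each), and was thus 2.19-fold higher in the transgenic cells. The spread between spots corresponded to an SD of 0.08 for a log2 ratio, which leaves out all variation between cultures, labelling reactions and membranes. The 2 housekeeping genes with a single spot were Hsp90ab1, a chaperone, at 43.8 on the Oct4 transgenic array and 30.8 on the WT array, and Rps27a, a ribosomal protein fused to ubiquitin, at 24.7 on the Oct4 transgenic array and 20.5 on the WT array. All 5 housekeeping genes thus had higher deposited values on the Oct4 transgenic array, with a median log2 ratio of 0.31 that turned to −0.16 when the 5 genes themselves set the scale.

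**Figure D1:**
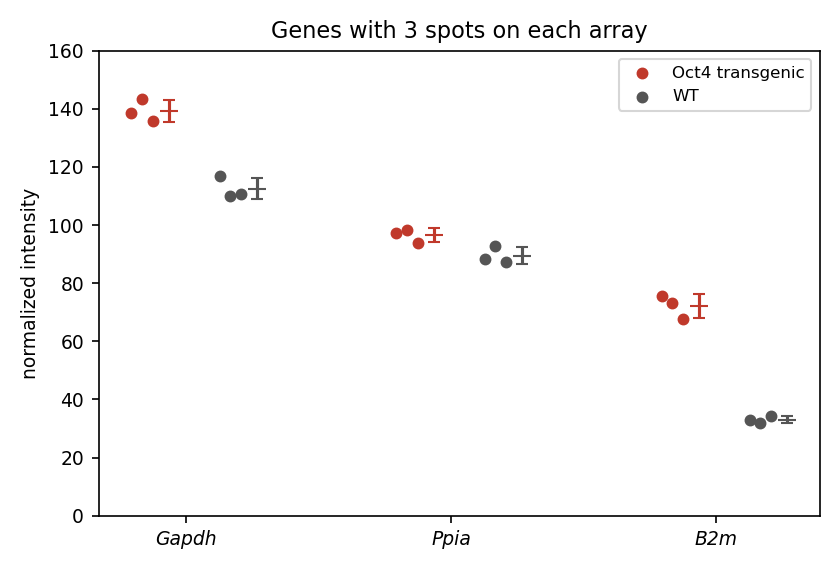
Normalized intensity (vertical axis, from 0) of each of the 3 spots of Gapdh, Ppia and B2m on the Oct4 transgenic array and on the WT array, with the mean and SD of the spots at the right of each set. Spots of 1 gene lie close together, and the 3 B2m spots average 72.2 on the Oct4 transgenic array and 33.0 on the WT array.

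Pou5f1 was detected at similar intensity on all arrays. Its normalized intensity was 12.1 in Oct4 transgenic MDSCs, 16.7 in Mst KO MDSCs, 11.5 in mdx MDSCs and 10.0 in WT MDSCs. Between Oct4 transgenic and WT this was 0.26 on the log2 scale, a value that ranged from −0.20 to 0.33 over the other ways of scaling and filtering. No direction can be given for Pou5f1, since scaling to the 5 housekeeping genes turned its sign. The transgene was not checked here, because the sources do not name the reporter.

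The remaining pluripotency genes did not differ by 2-fold either. Of 15 genes of this kind on the array 8 were compared, none was past 2-fold, and their median of 0.11 on the log2 scale reached −0.36 under scaling to the housekeeping genes. Among them Myc, a growth-promoting transcription factor, had 12.9 in Oct4 transgenic MDSCs and 12.4 in WT MDSCs. Akp2 (Alpl), the tissue-nonspecific alkaline phosphatase used as a stain for embryonic stem cells, had 7.10 in Oct4 transgenic and 6.38 in WT MDSCs. Utf1, a chromatin factor of undifferentiated embryonic cells, had 1.30 in Oct4 transgenic and 0.984 in WT MDSCs, and Fgf4, a growth factor that Oct4 and Sox2 switch on in the inner cell mass, had 1.84 in Oct4 transgenic and 2.51 in WT MDSCs. Nanog, Sox2 and Zfp42 (Rex1) were listed at 0.0634, 0.636 and 0.0910 on the Oct4 transgenic array and at 0.0337, 0.282 and 0 on the WT array, and all 3 were called absent on both, as were Tdgf1 and Gdf3. Of the 8 markers of pluripotent cells on the array only Pou5f1, Utf1 and Fgf4 were therefore called present, and their sum with the absent ones came to 16.6 in Oct4 transgenic MDSCs and 14.6 in WT MDSCs.

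Upstream sequences are shown for Pou5f1, whose promoter the transgene uses, and for 4 of the genes that differed by 2-fold or more, as the stretch of 250 bases before the start site in RefSeq (mouse build GRCm38.p6), read 5′ to 3′ in the direction of transcription. The capitals mark, on either strand, GGGCGG (the GC box) for Pou5f1, the CArG box for Actc1, CANNTG (the E-box of Myod1 and its relatives) for Cdh15, CACCTG (the E-box form that Snail proteins bind) for Snai1, and ATGCAAAT for Spp1, the octamer that POU factors such as Oct4 are known to bind. The windows lie at chr17:35505782-35506031 on the plus strand for Pou5f1, chr2:114052876-114053125 on the minus strand for Actc1, chr8:122848124-122848373 on the plus strand for Cdh15, chr2:167537945-167538194 on the plus strand for Snai1 and chr5:104435942-104436191 on the plus strand for Spp1. RefSeq lists 2 starts for Pou5f1, of which the first was taken, and 2 for Spp1, of which the second was taken. The Spp1 window was picked by hand and holds the octamer. The window of its first start is not shown, so the octamer is described for the second start alone.
Pou5f1: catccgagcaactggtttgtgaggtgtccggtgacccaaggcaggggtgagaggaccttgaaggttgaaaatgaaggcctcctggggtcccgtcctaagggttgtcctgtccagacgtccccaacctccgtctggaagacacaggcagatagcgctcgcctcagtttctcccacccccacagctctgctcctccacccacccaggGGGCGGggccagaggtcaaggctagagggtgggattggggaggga
Actc1: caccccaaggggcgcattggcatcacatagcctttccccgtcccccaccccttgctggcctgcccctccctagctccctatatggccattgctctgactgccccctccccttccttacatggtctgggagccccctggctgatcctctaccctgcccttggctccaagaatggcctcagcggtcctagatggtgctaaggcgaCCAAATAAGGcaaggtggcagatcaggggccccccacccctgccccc
Cdh15: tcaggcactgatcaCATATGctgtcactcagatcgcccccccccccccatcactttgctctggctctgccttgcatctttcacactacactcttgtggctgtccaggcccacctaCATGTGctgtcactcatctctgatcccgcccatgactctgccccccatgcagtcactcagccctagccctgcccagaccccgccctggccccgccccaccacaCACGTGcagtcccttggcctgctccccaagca
Snai1: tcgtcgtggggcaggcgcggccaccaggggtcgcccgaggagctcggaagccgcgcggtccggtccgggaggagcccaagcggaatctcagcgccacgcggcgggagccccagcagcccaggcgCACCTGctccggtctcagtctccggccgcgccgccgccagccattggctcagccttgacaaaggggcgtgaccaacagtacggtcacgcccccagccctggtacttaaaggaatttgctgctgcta
Spp1: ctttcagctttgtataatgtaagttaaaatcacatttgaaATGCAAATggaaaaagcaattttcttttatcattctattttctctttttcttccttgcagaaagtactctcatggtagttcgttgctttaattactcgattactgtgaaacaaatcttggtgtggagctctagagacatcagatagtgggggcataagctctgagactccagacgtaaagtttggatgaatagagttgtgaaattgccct

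The letters marked differ widely in how common they are. Among 32851 windows of this length, CANNTG stood in 66.2%, GGGCGG in 32.7%, CACCTG in 17.2%, ATGCAAAT in 1.6% and the CArG box in 1.47%. Cdh15 held 3 E-boxes, and the octamer of Spp1 began 210 bases before the start used. The CArG box of Actc1 began 47 bases before its start and the CACCTG of Snai1 126 bases before its own. Of the 31 genes that differed by 2-fold or more, 20 had a window and 2 of these held ATGCAAAT. Here a gene counted if the window of any of its starts held the letters. The 1.6% counts single windows, so it cannot be set against this number of genes. A match of letters describes the window and was not tested as a binding site.

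Relative to WT, 19 of the 144 genes (13.2%) were at least 2-fold higher in Oct4 transgenic MDSCs and 12 (8.33%) were at least 2-fold lower, while 113 lay within 2-fold. The median log2 ratio was −0.01, with 72 genes above 0 and 72 below. Of the 19 higher genes 13 were present on both arrays and 6 were absent in WT, and of the 12 lower genes 8 were present on both arrays and 4 were absent in Oct4 transgenic MDSCs. With each absent value below the dimmest present gene of its array raised to that level, 17 genes (11.8%) were higher and 8 (5.56%) lower. The balance between the directions depended on the scale. With Gapdh alone as the scale 12 genes were higher and 21 lower (36.4% of the differing genes higher, against 61.3% with the deposited values), with the 5 housekeeping genes 11 were higher and 24 lower (31.4%), and with the 5 housekeeping genes and no background subtraction 7 were higher and 14 lower (33.3%). The median of all genes then stood at −0.32, −0.47 and −0.39. All 31 genes kept their sign under every alternative that gave them a value, and 15 of them also stayed at least 2-fold apart, which were the higher genes Ccnd2, Cxcl12, Pparg, Snai1, Fgfr4, Pdgfra and Cdh11 and the lower genes Myod1, Cdh15, Actc1, Hdac1, Spp1, Notch1, Cdh13 and Notch3. Every other gene fell under 2-fold in at least 1 alternative. The differing genes were spread over the range of brightness, with 6 higher and 4 lower among the 48 dimmest genes, 6 and 5 among the 48 of middle intensity and 7 and 3 among the 48 brightest.

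**Figure D2:**
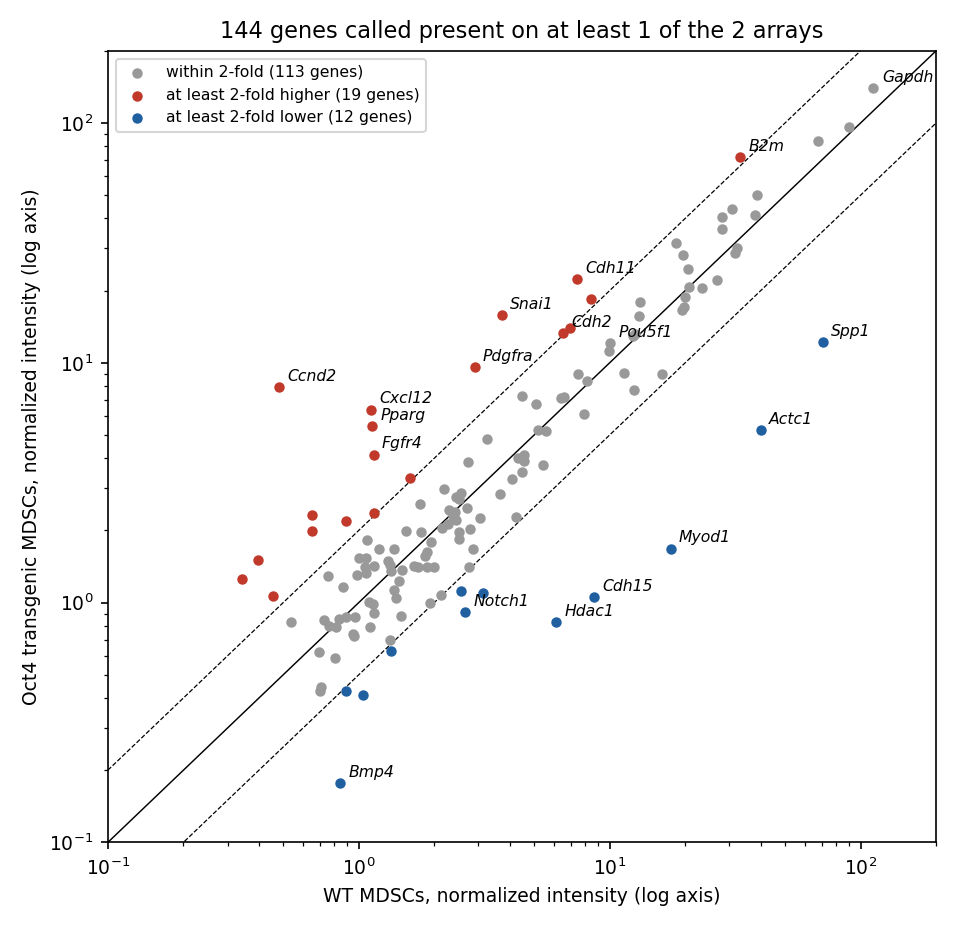
Normalized intensity of the 144 compared genes on the Oct4 transgenic array and on the WT array (log axes), with a line at equality, dashed lines at 2-fold either way, red points for the higher and blue points for the lower genes. Most genes (113) lie between the 2-fold lines, 19 lie on the Oct4 transgenic side and 12 on the WT side.

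**Figure D3:**
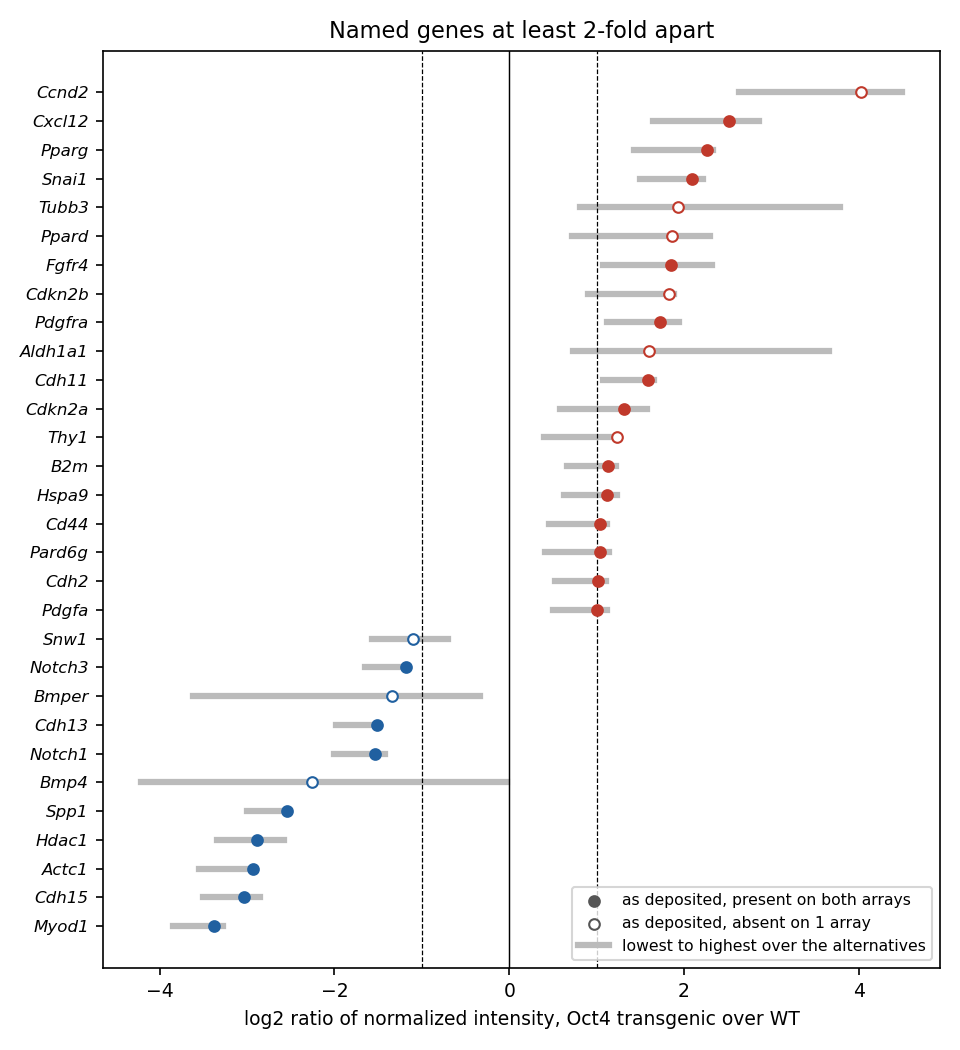
Log2 ratio of Oct4 transgenic over WT for the named genes at least 2-fold apart, with a bar from the lowest to the highest value over the alternative scalings and filters and open points for genes absent on 1 array. Ccnd2 lies farthest to the higher side at 4.03 and Myod1 farthest to the lower side at −3.38, and no bar crosses 0.

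Genes of the skeletal muscle programme were lower in Oct4 transgenic MDSCs. Of 10 such genes on the array 8 were compared, 4 were at least 2-fold lower (8.33% of all compared genes were) and none was higher, and all 8 lay below 0, with a median log2 ratio of −1.72 against −0.01 over all genes. That median fell between the 4 lower genes and the 4 within 2-fold. It ranged from −2.18 with the 5 housekeeping genes as the scale to −0.73 without a filter on absent genes. Myod1, the factor that commits cells to muscle, had an intensity of 1.68 in Oct4 transgenic MDSCs, 2.65 in Mst KO MDSCs, 2.68 in mdx MDSCs and 17.5 in WT MDSCs, so that only the WT array was high and Oct4 transgenic was 10.4-fold lower than WT. Cdh15, the M-cadherin of satellite cells and myoblasts, had 1.06 in Oct4 transgenic MDSCs, 1.66 in Mst KO, 1.34 in mdx and 8.67 in WT MDSCs, and was 8.21-fold lower in Oct4 transgenic than in WT. Its Oct4 transgenic value lay close to the blank positions of that array (0.841 and 0.702), so the size of the fold is uncertain. Actc1, the cardiac actin that is the main sarcomeric actin of young skeletal muscle cells, had 5.23 in Oct4 transgenic MDSCs, 6.52 in Mst KO, 4.87 in mdx and 39.9 in WT MDSCs, and was 7.64-fold lower. Spp1 was the fourth lower gene of this list and is described separately. Whether fewer cells of the culture expressed these genes or each cell held less of their RNA cannot be told apart in RNA of whole cultures.

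The other muscle genes lay within 2-fold. Myf5, the partner of Myod1 in commitment, had 2.48 in Oct4 transgenic and 2.69 in WT MDSCs. Des, the intermediate filament desmin, had 6.09 in Oct4 transgenic and 7.92 in WT MDSCs, and Ncam1, an adhesion molecule of myoblasts, stood at a log2 ratio of −0.14. Igf1, a growth factor for muscle, had 2.27 in Oct4 transgenic and 4.24 in WT MDSCs, or −0.90 as a log2 ratio. Summed over the 8 markers of skeletal myogenic cells, of which the same number, 6, was present on each array, the intensity was 17.9 in Oct4 transgenic MDSCs and 78.2 in WT MDSCs. Mef2a and Myf6 were absent on both arrays.

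Spp1, osteopontin, a secreted phosphoprotein of bone matrix, myoblasts and macrophages, was lower as well. It stood at 12.2 in Oct4 transgenic MDSCs, 20.3 in Mst KO MDSCs, 6.98 in mdx MDSCs and 70.7 in WT MDSCs, and was 5.80-fold lower in Oct4 transgenic than in WT. The octamer in the window of Spp1, printed with the upstream sequences, is a description of sequence only, and its part in the Spp1 signal was not tested.

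Hdac1 was lower in Oct4 transgenic MDSCs than in any other type. This histone deacetylase, which represses transcription and also binds Myod1, had 0.828 in Oct4 transgenic MDSCs, 4.63 in Mst KO, 3.34 in mdx and 6.10 in WT MDSCs, and its listed value was 7.37-fold lower than in WT. The Oct4 transgenic value lay at the level of the blank positions of that array (0.841 and 0.702), so that it was not above empty membrane there and the fold rests on a signal at background. Among the 149 genes that any of the 4 arrays called present it was the only 1 (0.671%) that lay at least 2-fold below each of the other arrays with all of these present. Its raw signal on the Oct4 transgenic array, 455, was 1.51 times the local background, and it was the dimmest gene called present there. The related deacetylase Hdac2 had 8.95 in Oct4 transgenic and 7.48 in WT MDSCs, and like it the rest of the 6 compared chromatin modifiers lay within 2-fold (median of the list −0.13).

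The Notch pathway is a cell contact signal in which a membrane ligand leads to cleavage of the receptor, whose intracellular part joins Rbpj to switch on Hes genes. Of 31 Notch pathway genes 21 were compared, 3 were at least 2-fold lower in Oct4 transgenic MDSCs and none was higher, beside 8.33% lower and 13.2% higher over all compared genes. The median log2 ratio of the list was −0.08, or 0.03 with local background subtracted. The receptors Notch1 and Notch3 were both lower. Notch1 had 0.912 in Oct4 transgenic MDSCs, 1.16 in Mst KO, 0.824 in mdx and 2.65 in WT MDSCs (2.90-fold lower in Oct4 transgenic than in WT). Notch3 had 1.12 in Oct4 transgenic MDSCs, 1.30 in Mst KO, 0.840 in mdx and 2.55 in WT MDSCs (2.27-fold lower). Both lay close to 1 in every type but WT. The receptor Notch2 stood at 2.13 in Oct4 transgenic and 2.26 in WT MDSCs, and the ligand Jag1 at 6.70 in Oct4 transgenic and 5.10 in WT MDSCs.

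Downstream of the receptors the values were close. Rbpj, the DNA-binding partner, had 17.0 in Oct4 transgenic and 19.7 in WT MDSCs, and Maml1, its coactivator, had 15.7 in Oct4 transgenic and 13.1 in WT MDSCs. The target genes Hes1 and Hes5 had 1.68 and 3.73 in Oct4 transgenic MDSCs against 1.39 and 5.43 in WT MDSCs. Snw1, a coactivator that joins the Notch complex, was also lower, at 0.627 and called absent in Oct4 transgenic MDSCs, against 1.35 in WT MDSCs, and with 0.828, the dimmest present gene of the Oct4 transgenic array, in place of the absent value the difference was 1.62-fold.

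Other lower genes were weak. Cdh13, the T-cadherin, which is anchored in the membrane without a cytoplasmic tail, had 1.09 in Oct4 transgenic MDSCs, 0.668 in Mst KO and 0.622 in mdx MDSCs (both called absent) and 3.12 in WT MDSCs, and was 2.86-fold lower in Oct4 transgenic than in WT. Bmp4, a ligand of the BMP family, was absent at 0.176 in Oct4 transgenic MDSCs against 0.843 in WT MDSCs, and Bmper, a secreted modulator of BMPs, was absent at 0.413 in Oct4 transgenic MDSCs against 1.04 in WT MDSCs. With absent values raised, the differences for Bmp4 and Bmper came to 1.02-fold and 1.26-fold, so that a 2-fold difference was not detectable for these 2 genes at the signal of this array.

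Among the higher genes, Ccnd2 stood farthest apart. This cyclin, which starts the cell cycle with Cdk4 and Cdk6, had 7.89 in Oct4 transgenic MDSCs, 1.80 in Mst KO MDSCs, 1.20 in mdx MDSCs and 0.483, called absent, in WT MDSCs. With the dimmest present gene of the WT array (0.697) in place of the absent signal, Oct4 transgenic was 11.3-fold higher than WT. Each fold given below with the absent value raised was made this way. Such a fold is not a lower bound, since Acan was called absent at 1.14 on the WT array. The log2 ratio of the listed values was 4.03, with 2.63 the lowest over the alternatives. The other D cyclins did not share the difference, as Ccnd1 and Ccnd3 had 1.83 and 7.73 in Oct4 transgenic MDSCs against 1.08 and 12.4 in WT MDSCs.

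A pair of neighbouring cell cycle inhibitors was higher as well. Cdkn2a, whose locus encodes p16 and p19Arf, had 2.19 in Oct4 transgenic MDSCs, 2.01 in Mst KO, 1.84 in mdx and 0.886 in WT MDSCs (2.48-fold higher in Oct4 transgenic than in WT). Cdkn2b, the neighbouring inhibitor p15, had 2.31 in Oct4 transgenic MDSCs, 9.64 in Mst KO, 5.44 in mdx and 0.649, called absent, in WT MDSCs. It was highest in Mst KO, and 3.32-fold higher in Oct4 transgenic than in WT with the absent value raised. Of 14 cell cycle genes 12 were compared, 3 were higher (13.2% of all compared genes were) and none was lower, and the median of 0.39 on the log2 scale became −0.07 under scaling to the housekeeping genes. Cdk4 had 36.2 in Oct4 transgenic and 28.0 in WT MDSCs, the inhibitor Cdkn1a (p21) 5.21 in Oct4 transgenic and 5.59 in WT MDSCs, and the S phase cyclin Ccna2 1.56 in Oct4 transgenic and 1.84 in WT MDSCs.

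Markers of mesenchymal and fibroblast-like cells were higher in Oct4 transgenic MDSCs, with the exception of collagen. Of 10 mesenchymal, cartilage and bone genes 6 were compared. Of these, 4 were higher and 1 (Spp1) was lower, beside 13.2% and 8.33% over all genes. Among the 4 was Thy1, whose value lay near the blank positions. The median log2 ratio was 1.41 against −0.01 over all genes. It ranged from 0.74 with the 5 housekeeping genes as the scale and no background subtraction to 1.66 with local background subtracted. Cxcl12, a chemokine of stromal cells, had 6.38 in Oct4 transgenic MDSCs, 10.2 in Mst KO MDSCs, 5.01 in mdx MDSCs and 1.12 in WT MDSCs, with WT alone low and Oct4 transgenic 5.70-fold higher. Pdgfra, the receptor of PDGF that marks fibro-adipogenic precursors of muscle, had 9.56 in Oct4 transgenic MDSCs, 19.7 in Mst KO, 37.5 in mdx and 2.90 in WT MDSCs (3.30-fold higher in Oct4 transgenic than in WT). Cdh11, the mesenchymal OB-cadherin, followed the same order, with 22.3 in Oct4 transgenic MDSCs, 65.6 in Mst KO, 68.7 in mdx and 7.39 in WT MDSCs (3.01-fold higher). Thus Pdgfra and Cdh11 in Oct4 transgenic cells lay between WT and the other types.

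Col1a1, the main chain of fibrillar collagen, had 30.1 in Oct4 transgenic MDSCs, 55.0 in Mst KO, 105 in mdx and 32.2 in WT MDSCs, and was thus not among the higher genes. Thy1, a surface marker of fibroblasts, had 1.07 in Oct4 transgenic MDSCs against 0.456, called absent, in WT MDSCs (1.54-fold higher with the absent value raised). Its Oct4 transgenic value lay close to the blank positions of that array (0.841 and 0.702), so the size of the fold is uncertain. The 5 markers of fibroblasts and mesenchymal cells on the array summed to 69.4 in Oct4 transgenic MDSCs and 44.1 in WT MDSCs, with 5 of them present in Oct4 transgenic and 4 in WT MDSCs. The part of a different share of such cells in the lower muscle genes or in any other difference was not tested.

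Pparg, a nuclear receptor and the master regulator of adipogenesis, was high only on the Oct4 transgenic array. It had 5.43 there, against 1.75 in Mst KO, 1.49 in mdx and 1.13 in WT MDSCs, and was 4.82-fold higher in Oct4 transgenic than in WT. Its relative Ppard had 1.25 in Oct4 transgenic MDSCs against 0.342, called absent, in WT (1.79-fold higher with the absent value raised). Aldh1a1, which makes retinoic acid from retinal, had 1.98 in Oct4 transgenic MDSCs against 0.654, called absent, in WT MDSCs (2.84-fold higher, likewise raised). Of the 7 adipose, liver and epithelial genes on the array 4 were compared and these 3 were the higher ones (13.2% of all compared genes were higher), with a median log2 ratio of 1.73 against −0.01 over all genes. That median was 1.17 with absent values raised, and ranged from 0.63 without a filter on absent genes to 2.31 with local background subtracted. The 4 markers of epithelial and liver cells on the array were absent on both arrays, and their sums were 1.39 in Oct4 transgenic and 1.32 in WT MDSCs.

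Snai1, a zinc finger repressor of E-cadherin that drives epithelial-mesenchymal transition, was likewise highest on the Oct4 transgenic array. It had 15.8 in Oct4 transgenic MDSCs, 3.70 in Mst KO, 4.81 in mdx and 3.71 in WT MDSCs, so that 3 arrays lay within a narrow range and Oct4 transgenic was 4.25-fold higher than WT. The related Snai2 was bright on both arrays, at 31.7 in Oct4 transgenic and 18.4 in WT MDSCs, and lay within 2-fold. E-cadherin itself, Cdh1, was called absent on both.

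Cell adhesion genes went both ways. Of 16 cadherins and catenins 7 were compared, and Cdh11 and Cdh2 were higher while Cdh15 and Cdh13 were lower in Oct4 transgenic MDSCs, where 13.2% of all compared genes were higher and 8.33% lower. Cdh2, the N-cadherin, had 13.3 in Oct4 transgenic MDSCs, 3.05 in Mst KO, 2.54 in mdx and 6.55 in WT MDSCs (2.03-fold higher in Oct4 transgenic than in WT). The catenins, which link cadherins to actin, had values of 40.7 (Ctnnb1) and 28.6 (Ctnna1) in Oct4 transgenic MDSCs against 28.1 and 31.6 in WT MDSCs. Gja1, the main connexin of many stem cells and thus a protein of gap junctions, had 9.01 in Oct4 transgenic MDSCs, 0.0581, called absent, in Mst KO, 5.77 in mdx and 16.1 in WT MDSCs. Gja4, a connexin of blood vessels, had 83.9 in Oct4 transgenic and 67.7 in WT MDSCs.

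Of 30 FGFs and other growth factors 14 were compared, 3 were higher and none was lower, beside 13.2% higher and 8.33% lower among all compared genes. The median log2 ratio of the list was −0.26, with 4 genes above 0 and 10 below. Fgfr4, a receptor for FGFs that satellite cells express, had 4.14 in Oct4 transgenic MDSCs, 1.08 in Mst KO, 1.54 in mdx and 1.15 in WT MDSCs, with Oct4 transgenic alone high. Pdgfa, a ligand of Pdgfra, had 14.0 in Oct4 transgenic MDSCs against 6.97 in WT MDSCs and was the called gene closest to the 2-fold limit, while the nearest genes that missed it were S100b and Fzd1, at 1.08 and 1.41 in Oct4 transgenic MDSCs against 2.12 and 2.76 in WT MDSCs (log2 ratios of −0.98 and −0.97). Fgfr4, Pdgfa and Pdgfra were the 3 higher genes of the list. Pdgfb had 13.2 in Oct4 transgenic and 12.6 in WT MDSCs, and Fgf7, the keratinocyte growth factor, 3.91 in Oct4 transgenic and 4.56 in WT MDSCs.

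The Wnt and BMP genes lay mostly within 2-fold. All 7 compared Wnt genes of 10 did so, with Fzd1, a receptor, at the low end of the ratios. Of 18 BMP and TGF-beta genes 6 were compared. None was higher and 2, Bmp4 and Bmper, were lower, beside 13.2% higher and 8.33% lower among all compared genes. Both were called absent on the Oct4 transgenic array and fell under 2-fold with absent values raised. The receptors Bmpr1a, Bmpr1b and Bmpr2 had 8.39, 1.29 and 20.5 in Oct4 transgenic MDSCs against 8.09, 0.757 and 23.3 in WT MDSCs.

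The last of the higher genes were scattered over functions. Hspa9, the mitochondrial chaperone mortalin, had 18.4 in Oct4 transgenic and 8.45 in WT MDSCs (2.18-fold higher), Cd44, the hyaluronan receptor used to describe MDSCs, 3.31 in Oct4 transgenic and 1.60 in WT MDSCs (2.06-fold higher), and Pard6g, a cell polarity adaptor, 2.35 in Oct4 transgenic and 1.15 in WT MDSCs. Cd34 and Ly6a (Sca1), the other surface markers by which MDSCs are described, were not analysed here. Tubb3, the beta-tubulin of neurons, had 1.51 in Oct4 transgenic MDSCs against 0.397, called absent, in WT MDSCs (2.17-fold higher with the absent value raised). It was the only higher gene among 4 compared neural genes, beside 13.2% over all genes. Abcg2, the dye efflux pump of side population cells, had 7.25 in Oct4 transgenic and 4.48 in WT MDSCs. Cd3e and Cd8a, chains of T cell receptors and coreceptors, had 1.49 and 1.67 in Oct4 transgenic MDSCs against 1.31 and 2.86 in WT MDSCs and were the only markers of hematopoietic cells called present, with Ptprc, the pan-leukocyte CD45, absent on both arrays. The endothelial markers Cdh5 and Kdr were absent on both.

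**Figure D4:**
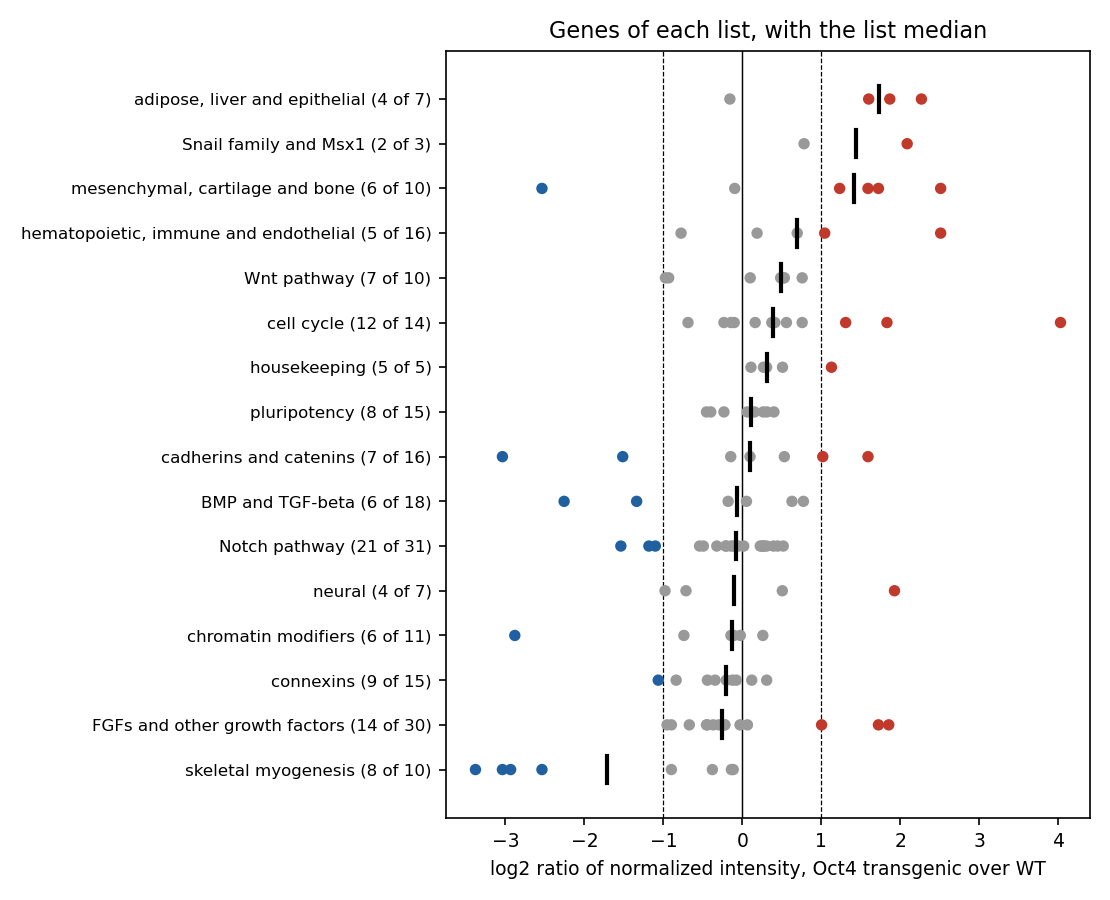
Log2 ratio of Oct4 transgenic over WT for each compared gene, by gene list, with the number compared of those on the array and a black bar at the median of each list, a line at the median of all compared genes and dashed lines at 2-fold. Muscle genes lie below 0 throughout (median −1.72), the mesenchymal list centres at 1.41 and pluripotency genes lie close to 0 (0.11).

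The 4 arrays were then set side by side. Of the 149 genes that any array called present, 8 (5.37%) were present on the Oct4 transgenic array and at least 2-fold above each other array, namely Aldh1a1, B2m, Ccnd2, Cdh2, Fgfr4, Pparg, Snai1 and Tubb3. The same count was 1 (0.671%) for Mst KO, 2 (1.34%) for mdx and 7 (4.70%) for WT. These counts were made with the deposited values alone, and no other scale was tried for them. On that scale Gapdh was highest on the Oct4 transgenic array, at 139 against 97.7 in Mst KO, 93.2 in mdx and 113 in WT. B2m (72.2 against 36.1 in mdx) and Cdh2 (13.3 against 6.55 in WT) lay close to the limit. Against the WT array, which all 3 comparisons share, Mst KO MDSCs had 10 genes (6.94%) at least 2-fold higher and 14 (9.72%) lower, and mdx MDSCs had 12 (8.39%) higher and 19 (13.3%) lower. For Myod1, Cdh15, Actc1 and Spp1 the WT value lay above, and for Cxcl12, Pdgfra and Cdh11 below, those of the other 3 types, and with WT on 1 membrane the part of genotype and the part of that membrane cannot be told apart. Over the 112 genes present on all 4 arrays, Pearson's r of the log2 intensities of Oct4 transgenic MDSCs was 0.91 with Mst KO, 0.92 with mdx and 0.87 with WT MDSCs, as a description across genes of the same membrane design.

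**Figure D5:**
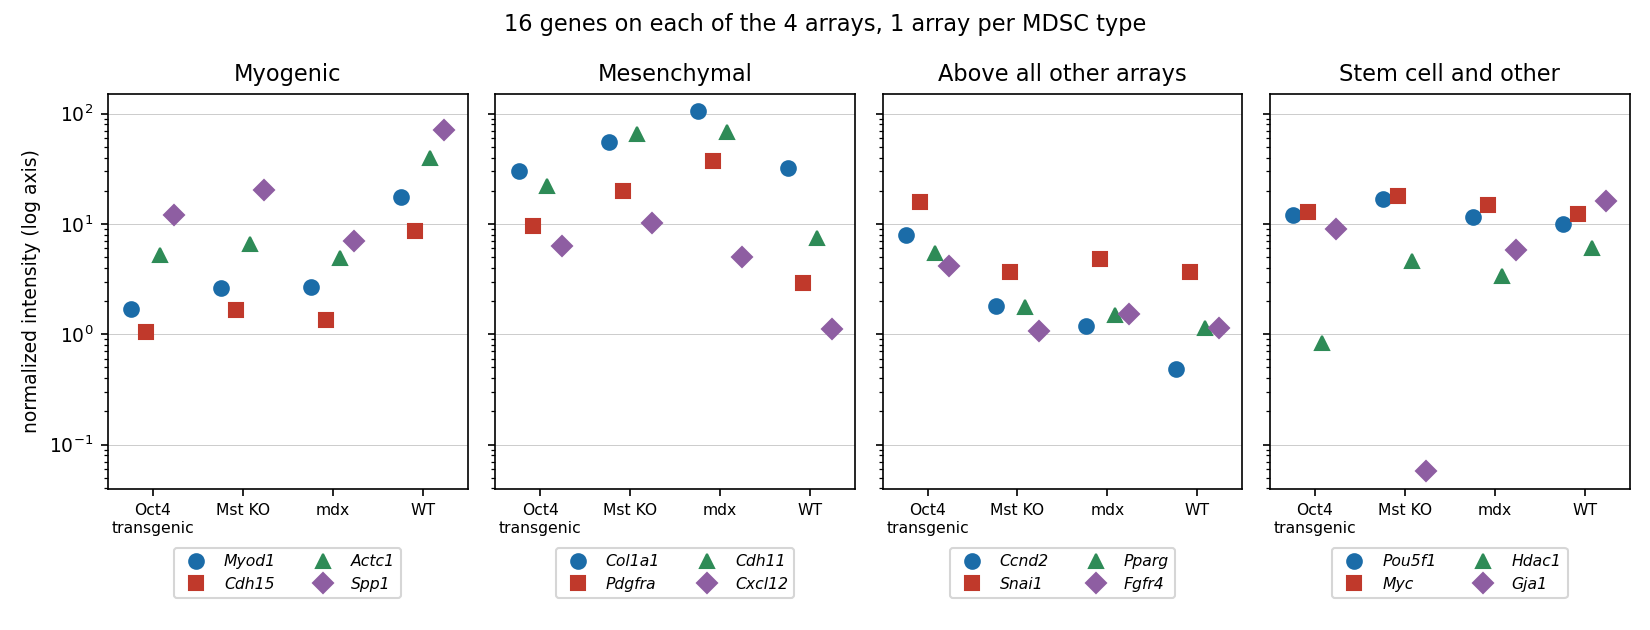
Normalized intensity (log axis) on each of the 4 arrays for 16 genes in 4 panels, with 1 symbol per gene and array and no error, since each type had 1 array. Myod1, Cdh15, Actc1 and Spp1 are highest on the WT array (17.5, 8.67, 39.9 and 70.7), whereas Ccnd2, Snai1, Pparg and Fgfr4 are highest on the Oct4 transgenic array (7.89, 15.8, 5.43 and 4.14).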

How the data were processed

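RNA of each MDSC type was labelled with biotin (as cRNA per the labels, as cDNA per the methods) and hybridised to 1 membrane of a stem cell oligonucleotide array. The authors deposited the raw spot intensity and a normalized signal from the array maker's software, together with present and absent calls and the local background intensity. The deposited normalized signal equalled the raw value minus the lowest spot of the array, divided by the mean of the 144 spots of middle intensity, although the methods name housekeeping genes. The authors' ratio columns, which set each type against WT, were not used.

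Spots of a gene were averaged, 14 control spots left out, and log2 ratios taken where either array called the gene present, with a limit of 2-fold (Python 3.11.15, pandas 2.3.3, numpy 2.4.6). Where 1 array called a gene absent, a value below the dimmest present gene of that array was raised to that level. The folds from raised values are not strict bounds. With 1 array a side, the number of arrays limits the precision and no test was made. Named genes were the 15 highest and 15 lowest past 2-fold, Pou5f1, the 5 housekeeping genes and, in each list, the members past 2-fold and up to 4 further bright members. Notch2, Jag1, Hes1, Hes5, Ccna2, Utf1 and all genes given as absent on both arrays are named beyond that rule, with their values already seen. The genes compared, the lists and the rule were chosen with earlier results of these data known. Some genes of the array are not reported here by name. Symbols are those of the array, with the RefSeq symbol in brackets where it is newer. In all 13 alternatives were tried, in scaling, background, filter, treatment of absent values, spots, source table and threshold.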

Additional observations from a re-analysis of the deposited data

How the results depend on the processing

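Counts of genes at least 2-fold apart, 19 higher and 12 lower with the deposited values, moved with the filter and the scale. Without a filter 48 were higher and 26 lower. Scaling to Gapdh gave 12 higher and 21 lower (median of all genes −0.32), scaling to the 5 housekeeping genes 11 and 24 (−0.47), and raw intensity scaled to the 5 housekeeping genes 7 and 14 (−0.39). A limit of 1.5-fold gave 25 and 23, and 3-fold 11 and 6. Median scaling, quantile normalization, local background, raised absent values, genes present on both arrays, omission of bleeding spots and the series' value table left both counts within 1.5 times. Of the 80 named genes, all 31 past 2-fold kept their sign in every alternative that gave a value. No paired analysis was possible because each group had 1 array, and no replicate could be left out. Signals near those of the blank positions limit the genes called absent.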
